A study of Mus musculus with 11 samples.

Results

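Postmitotic neuroblasts and young neurons are described here in single-cell RNA sequencing libraries of mouse brain, 1 library per mouse, 11 in all. A cell was taken as a member when at least 3 of 8 neuronal genes (Sox11, Dcx, Stmn2, Tubb3, Gad1, Gad2, Snap25, Rbfox3) had a UMI, a single counted transcript molecule, with Dcx, Stmn2 or Rbfox3 among them. Fewer than 3 of 6 cell division genes (Top2a, Mki67, Cenpf, Birc5, Ube2c, Cdk1) and fewer than 2 of 6 genes that define other brain cells (P2ry12, Tmem119, Cldn5, Mog, Aqp4, Kcnj13) could have a UMI. The rule found 1201 members among 132437 retained cells, which had more than 500 genes, more than 1000 UMIs and less than 25% mitochondrial UMIs. The deposited matrices held 155804 barcodes.

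The study asked how loss of Lrg1, which encodes a secreted leucine-rich glycoprotein, alters brain cells after ischemia and reperfusion. The sham + WT group (replicates 1, 2 and 3) and the MCAO/R + WT group (replicates 1 and 2) were wild-type mice. Mice of the sham + Lrg1-/- and the MCAO/R + Lrg1-/- groups (in each, replicates 1, 2 and 5) carried a conventional knockout of Lrg1, which is lost in every tissue from conception and not only in neurons. MCAO/R is transient occlusion of the middle cerebral artery with a filament, followed by reperfusion, and sham mice had the same operation without the filament reaching the artery that is blocked. The methods list several reperfusion times and do not say which applies to these libraries. The paper's discussion says that its data cover only short-term effects at 1 hour, without tying this to the libraries. The time after ischemia is therefore not settled here. By the methods, the wild-type mice were male C57BL/6 mice of 8 to 10 weeks, and the knockout mice, backcrossed to C57BL/6N, were 3 months old with no sex given. Age and genotype therefore cannot be told apart.

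Neuroblasts of the adult mouse forebrain are born from dividing progenitors in the wall of the lateral ventricle and migrate in chains toward the olfactory bulb, where most mature into GABAergic interneurons. A smaller set of new neurons, which are glutamatergic, arises in the dentate gyrus of the hippocampus and passes through stages marked by the transcription factors Eomes and Neurod1. Doublecortin, the product of Dcx, binds microtubules in migrating neurons. The transcription factor Sox11, the tubulin Tubb3 and the tubulin-binding protein Stmn2 are markers of young neurons.

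Because the members were selected on the UMIs of these genes, the genes of the rule are given as a description without a test. Sox11 had a UMI in 88.2% of the members and in 6.53% of the remaining retained cells, Tubb3 in 87.6% and 18.3%, Stmn2 in 79.1% and 7.50%, and Dcx in 78.9% and 2.33%. The second value of each pair is taken over all other retained cells, whatever their type. For Tubb3 it ran from 5.80% to 11.1% in the sham libraries and from 12.1% to 33.3% after MCAO/R. For Stmn2 it was 6.04% to 7.84% in sham + WT and 12.4% to 19.4% in sham + Lrg1-/- libraries. After MCAO/R it was 3.33% and 5.96% in WT mice and 5.99% to 9.58% in Lrg1-/- mice. For Rbfox3 it was lower in the Lrg1-/- libraries (0.309% to 0.624%) than in the WT libraries (0.92% to 2.06%). For Dcx the genotypes overlapped. The part of these differences in membership was not tested. The GABA synthesis genes Gad1 and Gad2 had a UMI in 64.0% and 65.0% of the members, the synaptic gene Snap25 in 63.3%, and Rbfox3, a marker of maturing neurons, in 18.3%. By library, Dcx ranged from 64.52% of the members in MCAO/R + Lrg1-/- replicate 1 to 87.5% in sham + WT replicate 2. Its level in the pooled members ranged from 423 UMIs per 1000000 (CPM) in sham + Lrg1-/- replicate 1 to 693 CPM in sham + Lrg1-/- replicate 2, which had 12 members.

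The limits of the rule cut through a continuous range of cells. Exactly 3 of the 8 neuronal genes were found in 245 members, and 962 cells just outside had exactly 2. At least 4 of the genes were found in 956 members and at least 6 in 654. Of the genes of other cells, exactly 1 had a UMI in 717 members, while 649 cells outside had exactly 2. In all, 1290 cells that met the other limits were left out with at least 2. The division genes removed few cells: 42 members had exactly 2 of them, and 27 cells outside had exactly 3. Without asking for Dcx, Stmn2 or Rbfox3, 165 cells with at least 3 neuronal genes and fewer than 2 genes of other cells had 3 or more division genes. Top2a had a UMI in 5.50% of the members and 2.82% of the remaining cells, Ube2c in 7.24% and 3.47%, and Mki67 in 2.91% and 2.04%. Cdk1 was lower in the members, at 1.58% and 2.88%. The members are called postmitotic by this limit alone.

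The members were not uniform. Clustering without reference to group, and with no balancing between libraries, split them into 12 sub-clusters. By the marker lists, 4 were neuroblast-like and 1 was glutamatergic neuron-like. These held 682 (56.8%) and 66 (5.50%) of the members. The other 453 members (37.7%) lay in sub-clusters named for another cell type or left unnamed. A sub-cluster was called neuroblast-like where no other marker list stood out in it and enough of 13 neuroblast markers were widespread in its cells. These 13 include the rule genes Dcx, Sox11, Stmn2 and Tubb3. The neuroblast-like sub-clusters had 9 to 13 of them widespread. Those named for red blood cells, pericytes or smooth muscle, choroid plexus and endothelium had 7, 7, 8 and 9, and the oligodendrocyte one had 4. The neuronal genes stood beside transcripts of pericytes or smooth muscle in 53 cells, of oligodendrocytes in 51, of choroid plexus in 46 and of endothelium in 45. A further sub-cluster of 97 cells was led by Hba-a2 and Hba-a1 and named for red blood cells, but Hba-a1 had a UMI in 28.9% of its cells, against 93.4% in the largest neuroblast-like sub-cluster, so this transcript was found in a minority of its cells. The unnamed sub-clusters were led by S100a9, S100a8, Cxcl2 and Il1b, genes of neutrophils and inflammation (114 cells), and by Lhfpl3, Tnr and Csmd1 (47 cells). In the second of these, the progenitor gene Egfr had a UMI in 72.3% of the cells. Pdgfra, of the oligodendrocyte precursor markers, had one in 23.4%, against at most 2.22% in any other sub-cluster. It held 11 and 21 cells of the MCAO/R + WT libraries and 1 and 5 of MCAO/R + Lrg1-/- replicates 2 and 5. The caller of doublets (2 cells under 1 barcode) marked 46 members, of which 20 were in the S100a9 sub-cluster and 11 in the endothelial sub-cluster.

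The neuroblast-like sub-clusters shared transcription factors of the forebrain GABAergic lineage, of which Sp9 and Dlx1 are also among the markers that gave them their name. The homeobox gene Meis2 had a UMI in 98.7% to 100% of their cells, Sp9 in 75.4% to 96.1% and Dlx1 in 52.9% to 94.4%. One (244 cells) was led by Xist, Gm42439, Spp1 and Erbb4, and 12, 81 and 147 of its cells came from MCAO/R + Lrg1-/- replicates 1, 2 and 5. The others were led by Dcc, Sox9, Sox6 and Insm1 (233 cells), by Prr7, Kirrel3 and Rem2 (103 cells) and by Ntng1, Pbx3 and Foxp2 (102 cells). In these 3, no library of the MCAO/R + Lrg1-/- group gave more than 2 cells to any one sub-cluster. The glutamatergic sub-cluster had Neurod1 in 71.2% and Eomes in 66.7% of its 66 cells and Dlx1 in 0%. Of the genes of the rule, Rbfox3 had a UMI in 95.5% of them and Gad1 in 0%. It held 13, 15 and 5 members of sham + WT replicates 1 to 3 and 12 and 11 members of the MCAO/R + WT libraries. In the MCAO/R + Lrg1-/- libraries it held 1, 1 and 5. Median depth was 4236.5 UMIs per cell in the Erbb4 sub-cluster, 12967 in the Dcc sub-cluster and 13605.5 in the glutamatergic one, and its part in the grouping was not tested.

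The libraries differed in ways other than their groups. The median depth of members was 7144 to 13781 UMIs per cell in the WT libraries and 3715 to 4847 in the MCAO/R + Lrg1-/- libraries, and in the sham + Lrg1-/- group it was 4225, 6044 and 15042.5, the last over 4 cells. Lrg1 (chromosome 17, 56119678 to 56122001, GRCm38) had 0 UMIs in the members of all 6 Lrg1-/- libraries and in the 3 sham + WT libraries, and 10 and 95 UMIs in the MCAO/R + WT libraries. MCAO/R + Lrg1-/- replicates 1 and 2 expressed Xist at 1439 and 1370 CPM with Ddx3y at 0, the pattern of female cells, while the members of the other 9 libraries had Ddx3y at 59.4 to 109.2 CPM. In a fit with sex as a term, the genotype difference after MCAO/R therefore rests on replicate 5 as the only library of the MCAO/R + Lrg1-/- group, and sex and genotype cannot be told apart for the other two. Among the cell barcodes, 2034 occurred as retained cells in more than 1 library and 32 members shared theirs with a retained cell of another library, but no barcode was a member in more than 1 library.

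Transcripts of other cells moved with genotype in the members. The summed level of 5 red blood cell transcripts was 10.7 to 23.1 CPM in the 5 WT libraries, 11852, 1515 and 1251 CPM in the sham + Lrg1-/- libraries, and 62091, 33070 and 27097 CPM in the MCAO/R + Lrg1-/- libraries. Choroid plexus transcripts, led by Ttr, summed to 186 to 691 CPM in the WT libraries and to 1852 to 23506 CPM in the Lrg1-/- libraries. Microglia markers summed to 3007, 3145 and 7447 CPM in the MCAO/R + Lrg1-/- group against 1452 and 851 CPM in the MCAO/R + WT group. For red blood cell and choroid plexus transcripts the genotypes did not overlap. In the neuroblast-like and glutamatergic sub-clusters alone, red blood cell transcripts still summed to 63217, 18584 and 25457 CPM in the MCAO/R + Lrg1-/- group. The same transcripts were high in the remaining cells of these libraries, at 43823, 73684 and 42752 CPM, and their part in the results below was not tested.

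The members were a small share of each library. They made up 1.30%, 0.812% and 1.02% of retained cells in the sham + WT group (179, 80 and 96 cells) and 0.885% and 1.83% in the MCAO/R + WT group (88 and 228 cells). In the sham + Lrg1-/- group the shares were 0.824%, 0.212% and 0.123% (78, 12 and 4 cells), and after MCAO/R the Lrg1-/- libraries had 0.482%, 0.553% and 0.895% (31, 99 and 306 cells). The 95% Clopper-Pearson interval of the highest share was 1.60% to 2.08% and that of the lowest 0.0336% to 0.315%, which cover counting error only. Under either surgery the highest Lrg1-/- value lay just above the lowest WT value, so the genotypes overlapped within each surgery.

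After MCAO/R, the mean share was 0.643% ± 0.221 (SD, n = 3) in Lrg1-/- mice and 1.36% ± 0.668 (SD, n = 2) in WT mice. The difference of -0.714 percentage points did not pass the two-sided exact permutation test over mice (p = 0.4; the smallest this design allows is 0.2). It was -0.241 points without MCAO/R + WT replicate 2 and -1.19 points without MCAO/R + WT replicate 1. After sham surgery the means were 0.386% ± 0.382 (SD, n = 3) and 1.04% ± 0.243 (SD, n = 3), a difference of -0.655 points (exact permutation p = 0.2, smallest possible 0.1). MCAO/R changed the share by 0.315 points in WT mice (exact permutation p = 0.6), with a positive sign only while MCAO/R + WT replicate 2 was included: it was -0.157 points without it and 0.788 points without MCAO/R + WT replicate 1. In Lrg1-/- mice the change was 0.257 points (exact permutation p = 0.4). Leaving out 1 library moved it to 0.125 or 0.170 points (without sham + Lrg1-/- replicate 5 or 2), 0.131 (without MCAO/R + Lrg1-/- replicate 5) or 0.476 (without sham + Lrg1-/- replicate 1). With these group sizes no p under 0.05 was possible in any of the 4 comparisons.

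Counting only the neuroblast-like and glutamatergic sub-clusters, the shares were 0.811%, 0.650% and 0.741% in the sham + WT group and 0.285%, 0.123% and 0.0616% in the sham + Lrg1-/- group. With ischemia and reperfusion, the shares were 0.553% and 1.27% in WT mice against 0.249%, 0.469% and 0.448% in Lrg1-/- mice. Here every Lrg1-/- library was below every WT library of the same surgery. The exact permutation p was the smallest possible in both cases, 0.1 after sham surgery and 0.2 after MCAO/R, and neither reaches 0.05. The sub-clusters left out were uneven between libraries. The choroid plexus sub-cluster came only from Lrg1-/- mice, with 32 cells of sham + Lrg1-/- replicate 1, and had Dcx in 82.6% of its cells. The S100a9 sub-cluster held 104 cells of MCAO/R + Lrg1-/- replicate 5. The pericyte or smooth muscle sub-cluster held 37 cells of sham + WT replicate 1. Their part in the separation of the genotypes was not tested. The shares are relative to all retained cells, and a lower share of neuroblasts cannot be told apart from a higher share of other cells. With every cell thinned to 1000 UMIs before the rule was applied, the MCAO/R + Lrg1-/- shares were 0.217%, 0.363% and 0.489% and the MCAO/R + WT shares 0.684% and 1.89%.

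**Figure D1:**
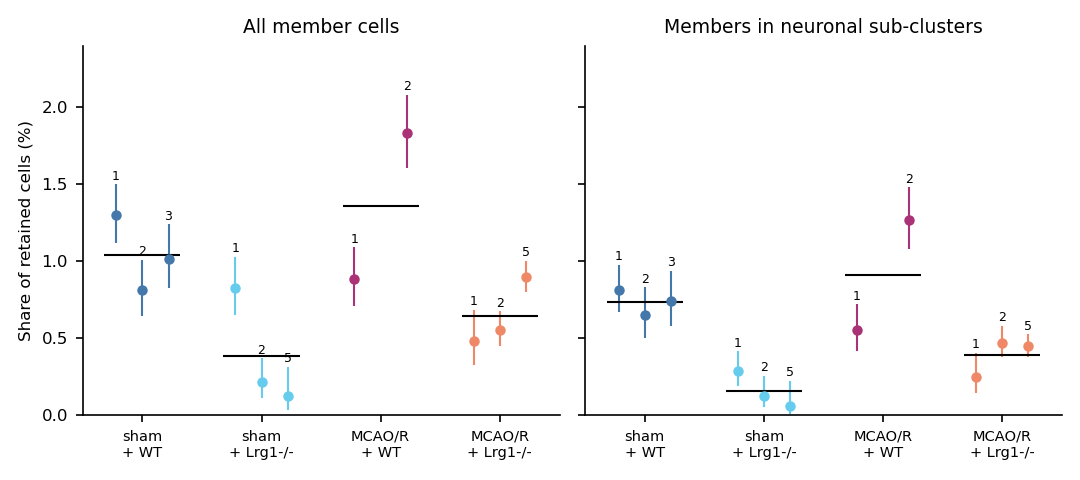
Percent of retained cells that are members in each library, with 95% Clopper-Pearson intervals as error bars and the group mean as a line. The MCAO/R + Lrg1-/- libraries lie between 0.482% and 0.895% and overlap the lower MCAO/R + WT library at 0.885%.

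Gene expression was compared on counts summed over the members of each mouse, in 9 libraries with at least 20 members. The sham + Lrg1-/- group entered with replicate 1 alone, which was assumed to vary like the other groups. Calls needed an adjusted p (Benjamini-Hochberg) under 0.05 in edgeR's quasi-likelihood test and a natural-log fold change beyond 0.25, and fold changes are given on the log2 scale. Between the MCAO/R + Lrg1-/- and MCAO/R + WT groups, 139 of 12811 genes tested were called (1.09%), 101 higher in Lrg1-/- mice (0.788%) and 38 lower (0.297%). Leaving out 1 library moved the count, to 14 without MCAO/R + WT replicate 2, 29 without MCAO/R + WT replicate 1, 35, 53 and 92 without sham + WT replicates 2, 1 and 3, 51 without MCAO/R + Lrg1-/- replicate 5 and 221 without MCAO/R + Lrg1-/- replicate 2. With sex as a term, where replicate 5 alone stands for the MCAO/R + Lrg1-/- group, 355 genes were called, 312 higher and 43 lower. In 30.5% of all genes tested the TMM-adjusted CPM of the 2 groups did not overlap. The immediate early genes Fos, Jun, Jund, Egr1 and Ier2 were among the genes that fell, the glycolytic genes Ldha and Pkm and the receptor gene Erbb4 were among those that rose. Of the marker lists of other cells, 5 red blood cell, 3 choroid plexus and 4 microglia transcripts also rose. Of the 101 higher genes, 93 had a higher level in the remaining cells than in the members of the same group, and 95 were also higher in the remaining cells of Lrg1-/- mice. Of the 38 lower genes, 12 had more in the remaining cells of the WT group, and 34 were also lower in the remaining cells.

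The neuroblast-like and glutamatergic sub-clusters, together called neuronal, were tested alone, without MCAO/R + Lrg1-/- replicate 1, which had 16 such cells. There 350 of 10862 genes tested were called (3.22%), 235 higher (2.16%) and 115 lower (1.06%), including 101 of the 139 (72.7% of the member calls and 28.9% of the sub-cluster calls), and 134 of the 135 genes that could be tested kept their direction. The sub-cluster cells are part of the members and come from the same mice, so this agreement is no independent support. With sex as a covariate, which leaves replicate 5 alone to stand for the MCAO/R + Lrg1-/- group, the sub-clusters gave 196 calls, 163 higher and 33 lower. This comparison sets the Erbb4 sub-cluster, which holds most of the MCAO/R + Lrg1-/- cells, against the Dcc, Prr7 and Ntng1 sub-clusters, which hold most of the MCAO/R + WT cells.

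Immediate early genes encode transcription factors and regulators that are switched on within minutes by neuronal activity, growth factors and stress, tissue dissociation among them. Of 14 tested, 5 fell and none rose, where 0.297% of all genes tested were called lower. The list had a median log2 fold change of -0.87 against -0.02 for all genes. Fos (chromosome 12, 85473890 to 85477273), a component of the AP-1 factor, stood at 4078 and 3281 CPM in the members of the MCAO/R + WT libraries and at 1020, 828 and 1158 CPM in the MCAO/R + Lrg1-/- libraries. Every Lrg1-/- library was thus well below both WT libraries, by 1.76 on the log2 scale (SE 0.19, adjusted p = 0.00276). Jun (chromosome 4, 95049034 to 95052222), the partner of Fos in AP-1, was at 3358 and 3210 CPM against 843, 644 and 850 CPM. It fell by 1.96 (SE 0.18, adjusted p = 0.000875) and was the only one of the 5 that passed the test under all 22 alternatives. Ier2 was at 1468 and 1267 CPM against 397, 391 and 422 CPM, Egr1 at 1545 and 1433 CPM against 510, 410 and 635 CPM, and Jund at 3156 and 3027 CPM against 822, 1127 and 1261 CPM. All 3 fell, with log2 fold changes of -1.64, -1.40 and -1.40 (adjusted p = 0.00207, 0.0166 and 0.0282).

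The sham libraries place these levels. Fos in the members of the sham + WT group was at 3594, 3628 and 3343 CPM, inside the range of the MCAO/R + WT group. In the sham + Lrg1-/- group it was at 2175, 475 and 3411 CPM, where the middle value came from 12 members and the last from 4. Jun was at 3539, 3337 and 2915 CPM in the sham + WT group and at 2108, 535 and 1543 CPM in the sham + Lrg1-/- group. For Jun, each sham + Lrg1-/- library was lower than each sham + WT library, but neither gene passed the test in the members after sham surgery. In the neuroblast-like and glutamatergic sub-clusters, where sham + Lrg1-/- replicate 1 had 27 cells, Jun, Jund, Ier2 and Fos fell after sham surgery, 4 of 14, where 0.552% of 10862 genes were called lower. The list had a median log2 fold change of -0.92 against -0.13 for all genes. Over all members, not every immediate early gene shared the pattern. Junb, at 641 and 778 CPM in the MCAO/R + WT group, was at 559, 423 and 748 CPM in the MCAO/R + Lrg1-/- group (log2 fold change -0.17, adjusted p = 0.785), and Nr4a1 had a log2 fold change of 0.17 (adjusted p = 0.855).

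Fos and Jun were also lower in the remaining cells. Fos in the remaining cells was at 5378 and 4452 CPM in the MCAO/R + WT libraries and at 1800, 2150 and 2003 CPM in the MCAO/R + Lrg1-/- libraries, and Jun was at 5472 and 5045 CPM against 1207, 1694 and 1628 CPM. When the genotype difference in the members was tested against that in the remaining cells, none of the 14 immediate early genes was called, although 11 were below 0, with a median of -0.63 against 0.15 for all genes. Within the neuroblast-like and glutamatergic sub-clusters, 8 of 14 fell (Jun, Fosb, Jund, Ier2, Junb, Fos, Dusp1 and Egr1), where 1.06% of all genes tested were called lower. The list had a median log2 fold change of -1.20 against 0.0094 for all genes. In the fit with sex, which sets 1 MCAO/R + Lrg1-/- library against the MCAO/R + WT group, Fos, Jun, Ier2 and Egr1 passed the threshold and Jund did not (adjusted p = 0.0846). With all 11 libraries in the fit Jun stayed past the threshold, while Fos, Ier2, Egr1 and Jund did not (adjusted p = 0.115, 0.12, 0.0899 and 0.115).

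The promoter of Fos is shown because it carries a well-known activity-responsive element. The motif TGACGT, the core of the cAMP response element, was searched on both strands of the window from 250 bases before to 50 after each RefSeq start (GRCm38.p6). It occurred in 7.513% of 32851 windows and in 7 of the 14 windows of 10 immediate early genes that had one. These windows belonged to Atf3, Dusp1, Egr2, Fos and Npas4, of which Fos was called. In Fos (chr12:85473640-85473939, plus strand) it lay 66 bases before the start and is in capitals:
Fos: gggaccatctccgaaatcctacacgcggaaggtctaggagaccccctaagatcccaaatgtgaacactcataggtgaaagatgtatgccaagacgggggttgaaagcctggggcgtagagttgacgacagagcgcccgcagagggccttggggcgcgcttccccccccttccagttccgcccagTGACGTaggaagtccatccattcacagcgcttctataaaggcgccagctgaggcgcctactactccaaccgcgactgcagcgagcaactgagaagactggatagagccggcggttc
A match describes letters in a window and was not set against binding or accessibility, which were not analysed here.

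**Figure D2:**
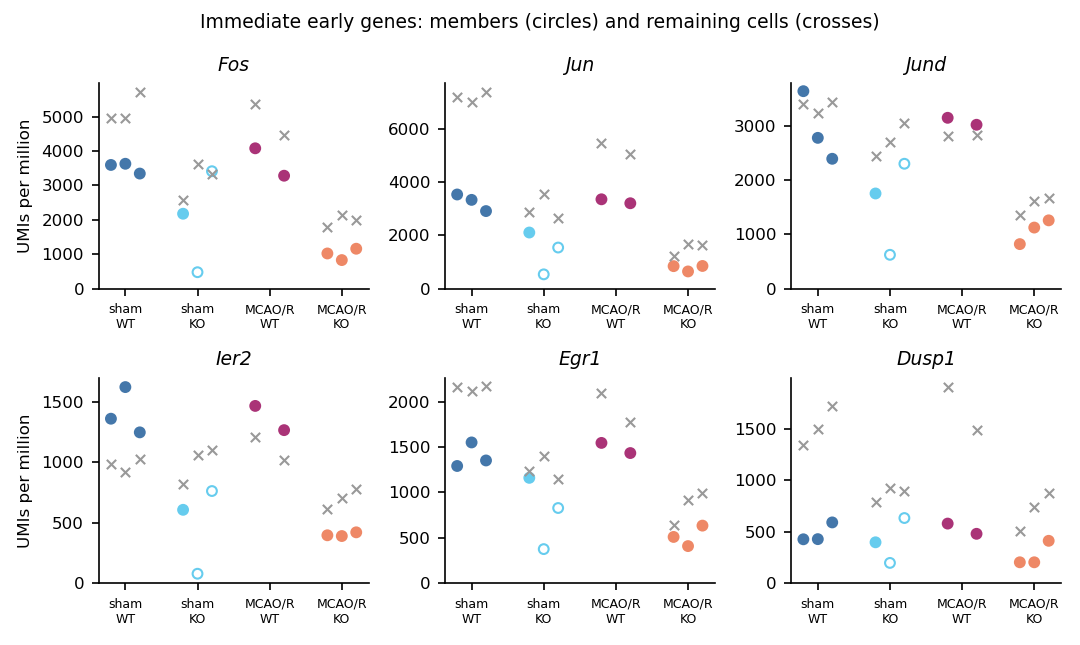
Level in CPM of immediate early genes in the members (circles) and in the remaining cells (crosses) of each library, by group, with open circles for the sham + Lrg1-/- libraries of 12 and 4 members. In the MCAO/R + Lrg1-/- libraries Fos lies at 828 to 1158 CPM in the members, below the 3281 and 4078 CPM of the MCAO/R + WT libraries, and the crosses are lower as well.

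Of 19 glycolytic and hypoxia-responsive genes tested, 2 rose and none fell, where 0.788% of all genes tested were called higher. The list had a median log2 fold change of 0.63 against -0.02 for all genes. Set against the remaining cells, the list had a median of -0.14, with 9 of 20 genes above 0 and 11 below, against 0.15 for all genes. Of these, Hk2, a hexokinase, was called, with a larger value in the members (2.01, adjusted p = 0.0365), and it kept the call in 4 alternatives and lost it in 5. Ldha (chromosome 7, 46841475 to 46855627), the lactate dehydrogenase subunit that hypoxia induces, was at 55.2 and 49.9 CPM in the MCAO/R + WT libraries and at 107, 127 and 130 CPM in the MCAO/R + Lrg1-/- libraries. The groups did not overlap, and it rose by 1.36 on the log2 scale (SE 0.20, adjusted p = 0.0184). Pkm, pyruvate kinase, was at 142 and 154 CPM against 285, 288 and 354 CPM and rose by 1.19 (SE 0.18, adjusted p = 0.0209). Aldoa, Pgk1 and Gapdh had log2 fold changes of 1.30, 1.05 and 0.77 without passing (adjusted p = 0.0847, 0.0565 and 0.0907). The glucose transporter Slc2a1 had a log2 fold change of -1.37 (adjusted p = 0.255).

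In the members, none of the 19 genes was called between the WT groups, although Slc2a1 was called higher after MCAO/R in the neuroblast-like and glutamatergic sub-clusters of WT mice. Ldha was at 48.0, 42.6 and 54.3 CPM in the sham + WT group, against 55.2 and 49.9 CPM after MCAO/R. In sham + Lrg1-/- replicate 1 it was at 101 CPM, near the MCAO/R + Lrg1-/- values. The remaining cells held more of it in every library, 119 to 202 CPM in WT mice and 216 to 366 CPM in Lrg1-/- mice. In the neuroblast-like and glutamatergic sub-clusters Ldha, Aldoa and Pkm rose after MCAO/R in Lrg1-/- against WT mice, 3 of 17 genes tested, where 2.16% of all genes were called higher. Ldha and Pkm lost the call under the replicate block (adjusted p = 0.0856 for both), and each also lost it without either MCAO/R + WT library (adjusted p = 0.0935 to 0.159).

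The hypoxia response element has the core ACGTG, and the promoter of Ldha is shown because it carries 3 copies. The motif, searched on both strands, occurred in 19.62% of all 32851 windows and in 15 of 28 windows of the 18 list genes that had one (53.57%). In Ldha (chr7:46845554-46845853, plus strand) the matches lay 145, 48 and 34 bases before the RefSeq start, and the letters of the matches on either strand are in capitals:
Ldha: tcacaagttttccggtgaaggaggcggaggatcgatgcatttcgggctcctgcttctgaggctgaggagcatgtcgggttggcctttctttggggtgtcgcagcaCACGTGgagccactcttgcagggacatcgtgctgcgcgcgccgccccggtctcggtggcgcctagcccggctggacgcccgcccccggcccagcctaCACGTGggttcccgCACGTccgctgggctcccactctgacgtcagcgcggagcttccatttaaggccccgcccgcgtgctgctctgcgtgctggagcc
The list members that hold the motif include genes that did not pass the test, such as Slc2a1, Gapdh and Aldoa.

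Among 26 genes of migration and guidance, Erbb4 rose and none fell, where 0.788% of all genes tested were called higher. The list median was 0.05 against -0.02 for all genes. Erbb4 (chromosome 1, 68032186 to 69108059) encodes a neuregulin receptor of interneurons and migrating neuroblasts. It was at 1277 and 1787 CPM in the MCAO/R + WT libraries and at 3786, 4771 and 2888 CPM in the MCAO/R + Lrg1-/- libraries, all 3 above both WT libraries. The log2 fold change was 1.42 (SE 0.28, adjusted p = 0.0451). In the remaining cells it was at 119 and 289 CPM against 128, 76.4 and 216 CPM, where the groups overlapped. The genotype difference in the members was not called against that in the remaining cells (1.76, adjusted p = 0.0889), nor was that of any other of the 26 genes. In the sham groups it was at 2524, 2429 and 3650 CPM in WT mice and at 4322, 7527 and 5442 CPM in Lrg1-/- mice. The call was lost in the fit with sex, with its 1 MCAO/R + Lrg1-/- library (adjusted p = 0.129), without MCAO/R + WT replicate 1 (0.284) or 2 (0.159), and under 6 other alternatives (adjusted p = 0.0540 to 0.0787). In the neuronal sub-clusters Erbb4 rose by 1.42 (adjusted p = 0.00695). Erbb4 is a leading gene of the sub-cluster that holds most of the MCAO/R + Lrg1-/- cells there. The sub-clusters were formed from these same counts, so this value is no separate support.

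Of 16 genes of the progenitor state, Egfr and Sox9 fell and none rose, where 0.297% of all genes tested were called lower. The list median was -0.43 against -0.02 for all genes. Within the neuronal sub-clusters, Btg2 and Sox9 of 14 fell, where 1.06% of all genes tested there were called lower. The list had 7 genes on either side of 0 and a median of -0.10. Sox9 is a leading gene of the Dcc sub-cluster, formed from these same counts, so its call there is no separate support. The neuronal sub-clusters leave out the one led by Lhfpl3, where Egfr had a UMI in 72.3% of the cells. The part of that sub-cluster in the values below was not tested. Egfr, the receptor of activated progenitors, had 117 and 346 UMIs in the MCAO/R + WT libraries (90.9 and 123 CPM) and 8, 22 and 38 UMIs in the MCAO/R + Lrg1-/- libraries (43.0, 33.7 and 25.2 CPM). It fell by 1.68 on the log2 scale (SE 0.26, adjusted p = 0.0209), but in the neuronal sub-clusters the value was -0.60 (adjusted p = 0.434). Without MCAO/R + WT replicate 2 the adjusted p was 0.17. Sox9, a transcription factor of neural stem cells and astrocytes, was at 340 and 160 CPM against 102, 87.4 and 70.3 CPM, the groups being apart. It fell by 1.46 (SE 0.29, adjusted p = 0.0463) and lost the call under 11 of 22 alternatives, among them the fit without MCAO/R + WT replicate 1 (-0.83, adjusted p = 0.283) and the fit with sex (adjusted p = 0.0604). Sox9 was at 226 to 266 CPM in the sham + WT libraries and at 55.9, 39.6 and 32.5 CPM in the sham + Lrg1-/- libraries.

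The genes of the glutamatergic sub-cluster were counted in few cells of Lrg1-/- mice. Neurod1 and Eomes were picked for description after their values were seen. Neurod1 had 116 and 64 UMIs in the MCAO/R + WT libraries and 1, 0 and 3 in the MCAO/R + Lrg1-/- libraries (90.1 and 22.8 CPM against 5.37, 0 and 1.99 CPM, adjusted p = 0.0424). Eomes had 71 and 55 UMIs against 1, 0 and 6 (adjusted p = 0.0463). Both were thus at or close to 0 in all 3 Lrg1-/- libraries, where the glutamatergic sub-cluster held 1, 1 and 5 cells, so level per cell and number of such cells cannot be told apart. In sham mice, Neurod1 had 56, 102 and 59 UMIs in the WT libraries and 6, 0 and 0 in the Lrg1-/- libraries.

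**Figure D3:**
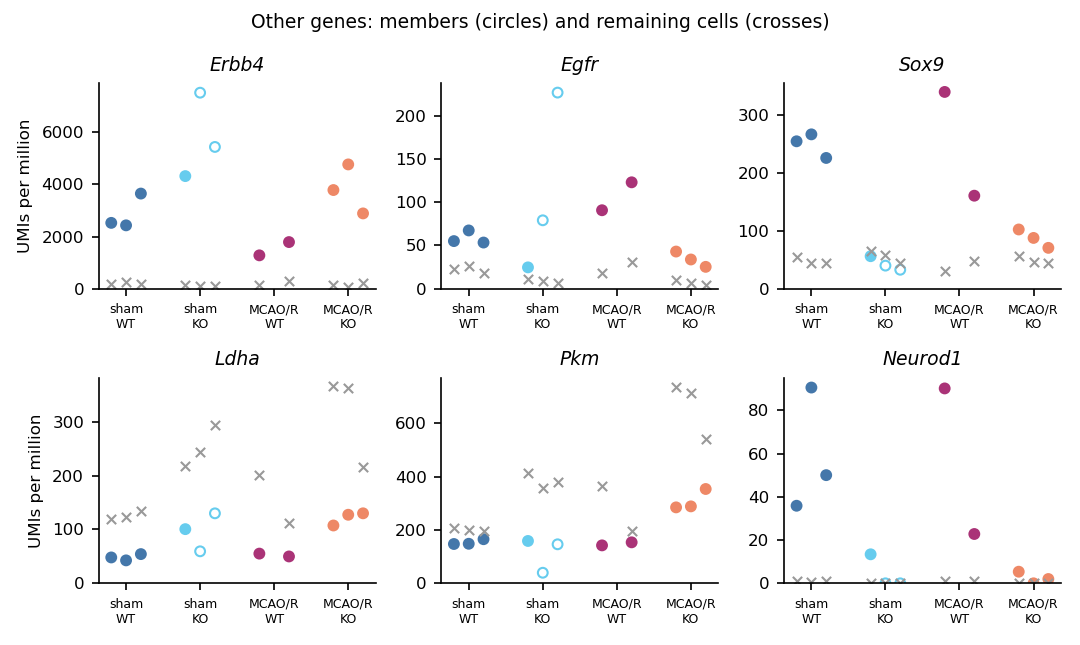
Level in CPM of Erbb4, Egfr, Sox9, Ldha, Pkm and Neurod1 in the members (circles) and in the remaining cells (crosses) of each library, by group, with KO for Lrg1-/- and open circles for the sham + Lrg1-/- libraries of 12 and 4 members. After MCAO/R the groups are apart in the members for each gene, and for Erbb4 the crosses stay between 76.4 and 289 CPM in all libraries.

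Further genes were named by the size of their change, among those with a higher level in the members than in the remaining cells of the higher group. Among the ones that rose, 4 were predicted genes without an assigned role. Gm42439 was at 43.5 and 42.8 CPM in the MCAO/R + WT libraries and at 140, 118 and 107 CPM in the MCAO/R + Lrg1-/- libraries (log2 fold change 1.57, adjusted p = 0.00571), and Gm20275, Gm16599 and Gm11149 had log2 fold changes of 1.90, 1.62 and 1.61. Gm42439 was also higher in sham + Lrg1-/- replicate 1, at 163 CPM against 51.9, 53.3 and 52.6 CPM in the sham + WT libraries (log2 fold change 1.60, adjusted p = 0.0196). Among the lower ones, Nfatc2, a calcium-regulated transcription factor, was at 184 and 119 CPM against 53.7, 24.5 and 37.8 CPM and fell by 1.95 (adjusted p = 0.0159). Rem2, a small GTPase that regulates calcium channels, was at 110 and 82.3 CPM against 26.9, 36.8 and 27.9 CPM and fell as well (adjusted p = 0.0448). Prr7, Sema5b, a semaphorin of axon guidance, Btbd8 and Galnt17 had log2 fold changes of -1.93, -1.59, -1.56 and -1.54. Btbd8 and Galnt17 lost the call in 13 alternatives each, Rem2 in 12, Gm16599 in 11, Sema5b and Gm11149 in 8, Prr7 in 7, Gm20275 in 6, Nfatc2 in 5 and Gm42439 in 3, out of 21 or 22. In the fit with sex, Rem2 and Gm20275 lost it (adjusted p = 0.0664 and 0.0599), as did Btbd8 and Gm16599.

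In several neuronal lists no gene was called. None of 22 immature neuron genes outside the rule was called in this comparison, although 20 were below 0 and the median was -0.41. Cd24a, a surface protein of neuroblasts, was at 369 and 431 CPM against 113, 287 and 215 CPM (log2 fold change -0.79, adjusted p = 0.23), and Sox4 had a log2 fold change of -0.71 (adjusted p = 0.125). Among 17 transcription factors of the forebrain GABAergic lineage no gene was called and the median was 0.17. Meis2 was at 1565 and 1752 CPM against 1939, 2088 and 1580 CPM, and Dlx1 at 221 and 247 CPM against 150, 204 and 133 CPM (log2 fold changes 0.28 and -0.42).

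Genes of synapses and excitability (21 tested, median -0.10), GABA transmission (7, median 0.22), glutamate transmission (11, median -0.01) and the axonal cytoskeleton (9, median 0.12) likewise held no call. The same was true of apoptosis (16, median -0.04), heat shock (11, median -0.14) and the integrated stress response (10, median 0.31). Nuclear genes of oxidative phosphorylation (45, median 0.23), cytosolic ribosomal protein genes (51, median 0.05) and nucleosome histones (14, median -0.41) had none either. Of 14 type I interferon response genes none was called, with a median of 1.09. Rsad2 and Bst2, antiviral effectors, had log2 fold changes of 2.95 (SE 0.95) and 1.81 (SE 0.59) with adjusted p = 0.162 and 0.167. Of 14 genes of chondroitin and hyaluronan metabolism, Hexa, a lysosomal hexosaminidase, rose, where 0.788% of all genes tested were called higher. It was at 21.0 and 25.3 CPM in the WT members and 53.7, 56.8 and 107 CPM in the Lrg1-/- members, with more in the remaining cells (86.4 to 104 CPM and 159 to 192 CPM). Some of these lists did hold calls in the neuroblast-like and glutamatergic sub-clusters. There Gria4 (glutamate transmission), Cebpb and Phgdh (integrated stress response), Rplp1 and Rps15 (ribosome), Ifitm3 (interferon) and Hexa rose, while Hist3h2ba and Hist1h2bc fell.

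The marker lists of other cells gave the remaining list calls, where 0.788% of all genes tested were called higher. All 5 red blood cell transcripts rose, with a median log2 fold change of 11.56, as did Ttr, Folr1 and Kl of 6 choroid plexus transcripts, C1qb, Tyrobp, Fcer1g and Cd68 of 10 microglia markers, and Pf4 and Lyz2 of 6 macrophage markers. Folr1 lost the call in the neuronal sub-clusters (4.12, adjusted p = 0.0986). Pf4 kept the call in 9 alternatives and lost it in 12, and Kl kept it in 9 and lost it in 10. No marker of endothelium (7 tested), oligodendrocytes (8), oligodendrocyte precursors (5), ependyma (6), pericytes and smooth muscle (6), T cells (3) or neutrophils (5) was called in the members. Within the neuronal sub-clusters, 9 of 10 microglia markers rose, as did Pltp (endothelium), Cldn11 (oligodendrocytes), Tagln and Acta2 (smooth muscle) and S100a8, S100a9 and Retnlg (neutrophils). Neutrophil markers summed to 3020 CPM in MCAO/R + Lrg1-/- replicate 5, which gave 104 of the 114 cells of the S100a9 sub-cluster, against 10.7 and 235 CPM in replicates 1 and 2.

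To see where the members differed from the rest of the brain, the genotype difference after MCAO/R was compared between the members and the remaining cells of the same mice. Of 18859 genes, 148 were called (0.785%), 119 with a larger value in the members (0.631%) and 29 with a smaller one (0.154%). Without 1 library of either group the count was 87 or 94 (MCAO/R + WT replicates 1 and 2) and 553, 434 or 344 (MCAO/R + Lrg1-/- replicates 1, 2 and 5). Cd24a, Sox9 and the calmodulin-binding peptide gene Pcp4 had smaller values in the members, by -2.64, -1.88 and -4.25 on the log2 scale (adjusted p = 0.000315, 0.0226 and 7e-06). Cd24a itself was at 26.2 and 30.6 CPM in the remaining cells of WT mice and at 47.0, 102 and 107 CPM in those of Lrg1-/- mice, opposite to the members. Pbx3, a homeobox factor of olfactory bulb interneurons, had a larger value in the members, by 1.80 (adjusted p = 0.0493). Pbx3 was at 202 and 499 CPM in the members of WT mice and at 1053, 676 and 669 CPM in those of Lrg1-/- mice.

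The interferon genes Isg15 and Rsad2 also had larger values in the members (1.90 and 2.41, adjusted p = 0.0233 and 0.0453), as had 4 of 5 red blood cell transcripts. All 51 ribosomal protein genes and all 45 genes of oxidative phosphorylation had values below 0 here, with medians of -0.85 and -0.78 against 0.15 for all genes, but none was called. The remaining cells are a mixture whose make-up differs between libraries, and its part in these values was not tested.

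After sham surgery, 39 of 12811 genes were called between sham + Lrg1-/- replicate 1 and the sham + WT group (0.304%), 31 higher (0.242%) and 8 lower (0.0624%). The count was 12, 9 and 10 without sham + WT replicates 1, 2 and 3, and 91 and 92 without MCAO/R + Lrg1-/- replicates 1 and 2, which share the estimate of spread. The balance turned with at least 4 neuronal genes required (133 higher, 162 lower), in the neuroblast-like and glutamatergic sub-clusters (51 and 60) and with all 11 libraries (42 and 53). With 1 Lrg1-/- library the comparison describes that mouse. Stmn4, a stathmin of growing axons and 1 of 22 immature neuron genes, fell by 1.95 (adjusted p = 0.049997), from 457, 344 and 365 CPM in the WT libraries to 103 CPM, and lost the call in 14 of 21 alternatives. Of the 22 genes, 21 were below 0, with a median of -1.16 against -0.06 for all genes. Arl4c, a small GTPase, was at 119, 128 and 129 CPM against 15.7 CPM (log2 fold change -3.03, adjusted p = 0.00488). Sema5b was at 57.7, 77.2 and 67.0 CPM against 4.47 CPM, which was 2 UMIs. Bbc3, which encodes the pro-apoptotic protein PUMA, was at 82.0, 71.0 and 71.2 CPM against 8.9 CPM (log2 fold change -3.08, adjusted p = 0.0287), the only one of 16 apoptosis genes called, and Hist3h2ba fell by 2.52. The 2 libraries left out of the fit had Stmn4 at 119 and 97.5 CPM, Arl4c at 49.5 and 48.7 CPM and Bbc3 at 9.9 and 48.7 CPM, each below every sham + WT library. Their 12 and 4 members held 100975 and 61558 UMIs in total, so these values rest on few UMIs and do not replicate the calls.

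The genes called higher in the sham comparison were more scattered. Hbegf, a ligand of the EGF receptor, was at 286 CPM in sham + Lrg1-/- replicate 1 and at 9.9 and 16.2 CPM in replicates 2 and 5, against 12.8 to 30.5 CPM in the sham + WT libraries. In replicate 1 it had a UMI in 12.8% of the 78 members, as had Sncg, Rasl11a and Rras, so these rises were carried by a minority of cells of 1 mouse. Of 5 red blood cell transcripts 4 rose, and of 6 choroid plexus transcripts 3, of which Folr1 was not called and turned to -4.11 (adjusted p = 0.795) in the neuronal sub-clusters. Clu, an astrocyte marker, rose as well, but had a log2 fold change of -0.92 in the neuronal sub-clusters. No gene of the immediate early (14), glycolysis (19), migration (26) or GABAergic transcription factor (17) lists was called in the members. Within the neuronal sub-clusters, beside the immediate early genes given above, Foxp2 rose, and Tubb2b, Tagln3, 19 of 51 ribosomal protein genes, Cox6b1 and Ndufa6 of 45 oxidative phosphorylation genes, and the histones Hist3h2ba and Hist1h2bc fell. Of all 10862 genes tested there, 111 were called (1.02%), 0.47% higher and 0.552% lower. Of the other-cell lists, 4 of 5 red blood cell transcripts, Enpp2 and Ttr of 4 choroid plexus transcripts, and Mbp of 8 oligodendrocyte transcripts rose.

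Ischemia in WT mice called 3 of 12811 genes in the members (0.0234%), all higher, and 587 genes (4.58%) had an unadjusted p below 0.05. Serpina3n, a secreted protease inhibitor of reactive glia, had 0 UMIs in all sham libraries and 31 and 103 UMIs in the MCAO/R + WT libraries (24.1 and 36.7 CPM, adjusted p = 0.00861). Lcn2, the iron-binding lipocalin of inflammation, had 0, 0 and 6 UMIs in the sham + WT libraries and 100 and 350 UMIs after MCAO/R (77.7 and 125 CPM, adjusted p = 0.0267). Ctla2a was at 28.8, 24.9 and 37.3 CPM against 245 and 313 CPM (log2 fold change 3.16, SE 0.28, adjusted p = 0.00397). All 3 were more abundant in the remaining cells of the MCAO/R + WT libraries, where Lcn2 reached 1095 and 578 CPM and Ctla2a 2748 and 1181 CPM. Without MCAO/R + WT replicate 2 no gene was called.

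No gene of the neuronal lists was called between the WT groups in the members. None of the 22 immature neuron genes (median -0.12), 17 GABAergic transcription factors (median -0.06), 14 immediate early genes (median -0.06) or 19 glycolysis genes (median 0.07) was called, nor any apoptosis gene. In the neuroblast-like and glutamatergic sub-clusters, 16 of 10862 genes were called in this comparison (0.147%), 12 higher (0.11%) and 4 lower (0.0368%). They included Cdkn1a, the cell cycle inhibitor p21 (log2 fold change 1.55, adjusted p = 0.0107), the glucose transporter Slc2a1 (1.93, adjusted p = 0.00852), the metallothionein Mt1 (1.21, adjusted p = 0.0329) and Sgk1, a stress-regulated kinase (1.64, adjusted p = 0.0334). These 4 were chosen for description after their values were seen. The microglial genes Ccl3, Fcgr3 and Nlrp3 were called beside them.

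In Lrg1-/- mice no gene was called between MCAO/R and sham surgery by edgeR, where 1296 genes (10.1%) had an unadjusted p below 0.05 and DESeq2 called 50. The interaction of genotype and surgery called none either, with 876 genes (6.84%) at an unadjusted p below 0.05 and 10 called by DESeq2. Whether the genotype difference depended on ischemia was therefore not resolved with 1 sham + Lrg1-/- library in the fit. Serpina3n was at 0 in the 3 sham + Lrg1-/- libraries and at 26.9, 30.7 and 27.9 CPM in the MCAO/R + Lrg1-/- libraries, near the 24.1 and 36.7 CPM of the MCAO/R + WT libraries. Each of the 4 comparisons between groups shares libraries with 2 of the others.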

How the data were processed

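Brain cells of 11 mice were measured with 10x Genomics 3′ libraries. The authors deposited raw counts (UMIs of each gene in each barcode), made with Cell Ranger (7.0.1 in the matrix headers) and the mm10 build of the submitters' notes. Groups came from the labels. The members and gene lists were chosen with earlier results of these data known. Cells were filtered, the rule applied, and counts summed per mouse over the members. Libraries with at least 20 members entered 1 fit of 9 libraries (5 residual degrees of freedom) in edgeR 4.0.16 (R 4.3.3, limma 3.58.1) with TMM and filterByExpr, tested on simulated data. Members held 61558 to 2805897 UMIs per library, so the smallest libraries are the least precise. CPM is per 1000000 summed UMIs, without TMM. Members against remaining cells were tested with mouse as a block. Shares were compared by two-sided exact permutation tests (scipy 1.17.1, Python 3.11.15).

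Members were first clustered on 2000 variable genes and 15 principal components with batch-balanced neighbours (scanpy 1.11.5, leidenalg 0.10.2). The resolution of 0.3 set at first gave 2 clusters (1160 and 41 cells), so a finer clustering (0.6), chosen after seeing this, is described. It used the same components with plain nearest neighbours and no balancing between libraries. The part of this change in the grouping was not tested. Doublets were scored with Scrublet (expected rate 6%, the 6% highest scores where its threshold marked under 0.5%) and kept in the main results.

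Named genes were up to 10 per direction with the largest fold change among called genes outside the rule. Their groups did not overlap, the higher group had a mean of at least 50 CPM, above that of its remaining cells, and a UMI in at least 10% of its members. Called genes of a list, or those of highest level, were named as its examples. Alternatives were DESeq2 1.42.0, other size factors, no low-count filter, the replicate block, doublets removed, thinning to 1000 UMIs, a mitochondrial limit of 10%, at least 4 neuronal genes, sub-clusters, sex, all 11 libraries and each library left out. Gene positions are from the GENCODE annotation of GRCm38. Counting was not stated to be free of overlap between neighbouring or duplicated genes, so single haemoglobin and histone genes are uncertain. Results for a few genes are not reported here.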

Additional observations from a re-analysis of the deposited data

How the results depend on the processing

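The count of called genes depended on the processing, and the causes were not tested beyond what each alternative changes by construction. For the MCAO/R + Lrg1-/- against MCAO/R + WT comparison, 139 genes became 282 with DESeq2, 1070 without the low-count filter and 342 with at least 4 neuronal genes required. For sham + Lrg1-/- against sham + WT, 39 became 140, 607 and 295 in the same order, and 23 with cells thinned to 1000 UMIs. For MCAO/R + WT against sham + WT, 3 became 18, 286 and 1, and 0 without the members outside the neuroblast-like cluster of the coarse clustering. In Lrg1-/- mice, 0 genes between the surgeries became 50, 399 and 52, and 4 without marked doublets, 7 after thinning and 1 with the coarse clustering. The interaction rose from 0 to 10 with DESeq2 and 197 without the filter. Members against remaining cells went from 148 to 337 without the filter, 86 without doublets and 55 after thinning.

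Alternatives chosen after seeing the data were the neuroblast-like and glutamatergic sub-clusters (350, 111, 16, 6, 1 and 890 genes for the 6 comparisons in the order above), these with sex as a covariate (196, 90, 18, 2 and 1 for the first 5), sex alone, where 1 library stands for the MCAO/R + Lrg1-/- group (355 for genotype after MCAO/R and 16 between the surgeries in Lrg1-/- mice) and all 11 libraries (95 for genotype after sham surgery and 16 between the surgeries in Lrg1-/- mice). In the sub-clusters, Clu, Folr1 and Wtip reversed in the sham comparison, to log2 fold changes of -0.92, -4.11 and -0.028 (with the sex covariate -0.92, -4.11 and -0.027), and none was called there.

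Leaving out 1 library gave 14 to 221, 9 to 92, 0 to 4, 0 to 8, 0 to 3 and 87 to 553 genes. For genotype after MCAO/R the count was 14 without MCAO/R + WT replicate 2, 29 without replicate 1, 35, 53 and 92 without sham + WT replicates 2, 1 and 3, 51 without MCAO/R + Lrg1-/- replicate 5 and 221 without replicate 2. The share difference between the WT groups ranged from -0.157 to 0.788 points and was negative without MCAO/R + WT replicate 2.

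The replicate block gave 70, 23, 8, 12 and 12 genes for the first 5 comparisons. Libraries with the same replicate number had correlations of deviations of -0.097 to 0.073, and those with other numbers -0.120 to 0.122. The 2 MCAO/R + WT libraries mirror each other by construction. These values therefore cannot show whether libraries of the same number were paired. Over the named genes and all alternatives, 1159 values kept their side of the threshold, 416 kept their direction but not the call, and 6 reversed. The low numbers of members in sham + Lrg1-/- replicates 2 and 5 (12 and 4) limit what sham surgery can show.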
